A study of Caenorhabditis elegans with 2 samples.

Results

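The piRNA clusters of Caenorhabditis elegans lie mostly in 2 blocks of chromosome IV, and the entries of a ChIP-seq peak list whose summits fell in those blocks are described here. Block A was taken as 4.5 to 7.0 Mb and block B as 13.5 to 17.2 Mb of the chromosome in the ce11 build. Members were chosen by position alone. They numbered 2756 of the 30000 entries of the pooled list and of the 6238 on chromosome IV, with 949 in block A and 1807 in block B. The other 3482 entries of chromosome IV served for comparison.

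The series mapped a tagged W03F9.2 protein on the genome by ChIP-seq, in which chromatin bound by a protein is precipitated with an antibody and its DNA is sequenced. There is 1 group with 2 biological replicates, each of whole OP215 worms in the L4 or young adult stage, males and females together. All of these worms carried the unc-119(ed3) allele on chromosome III and the integrated transgene wgIs215, whose target is W03F9.2. The labels name W03F9.2 in their antibody field and an eGFP fusion in their description, so which of them was precipitated is not settled, and no untagged worms are among the samples analysed here. Germline and body cells were not separated, so a summit says nothing of the cells it came from, and fewer bound cells cannot be told apart from weaker binding per cell.

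piRNAs, called 21U-RNAs in this worm, are small RNAs of the germline that begin with U and are carried by the Argonaute PRG-1. With it they recognise transposons and other foreign sequence and start their silencing. Most piRNA genes are transcription units of their own, each with a short sequence motif a fixed distance before the piRNA, and they lie between and inside ordinary genes. The proteins SNPC-4, PRDE-1, TOFU-4 and TOFU-5 are known to gather at these clusters and to be needed for making piRNA precursors.

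The annotation bore out the label. Blocks A and B held 14204 of the annotated piRNA genes of chromosome IV, 96.5% of them, against 510 in the rest of the chromosome. Block B was the denser, with 3078 piRNA genes per Mb against 1126 in block A and 45.2 in the rest. Protein-coding genes ran the other way, at 193 per Mb in block A, 124 in block B and 207 in the rest of the chromosome. The blocks were also poorer in G and C, at 33.0% of bases against 35.5% in the rest, and block bases within 200 bp of a piRNA gene had only 29.6%.

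The 3 strongest peaks of each block are shown first, because the sequence at the highest signals can then be set beside that of the piRNA genes. Each line gives the summit base and 50 reference bases of WBcel235 on each side of it, 5′ to 3′ on the plus strand from the RefSeq assembly, with the summit base as a capital. The name is that of the gene whose promoter holds the summit.
sqd-1, chrIV:6323822-6323922, plus strand: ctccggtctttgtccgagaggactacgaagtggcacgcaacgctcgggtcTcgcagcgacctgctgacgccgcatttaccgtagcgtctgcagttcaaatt
rpl-20, chrIV:4750026-4750126, plus strand: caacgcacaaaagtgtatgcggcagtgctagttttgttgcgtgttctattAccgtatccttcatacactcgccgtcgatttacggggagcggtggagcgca
Y73B6BL.29, chrIV:6321846-6321946, plus strand: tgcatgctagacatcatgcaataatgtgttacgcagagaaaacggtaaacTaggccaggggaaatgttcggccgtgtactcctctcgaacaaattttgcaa
ntl-11, chrIV:15471579-15471679, plus strand: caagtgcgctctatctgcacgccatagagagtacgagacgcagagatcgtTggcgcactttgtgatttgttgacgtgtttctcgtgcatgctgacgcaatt
Y73F8A.27, chrIV:15472555-15472655, plus strand: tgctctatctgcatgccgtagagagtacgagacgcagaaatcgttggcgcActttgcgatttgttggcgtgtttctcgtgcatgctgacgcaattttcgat
set-26, chrIV:16656395-16656495, plus strand: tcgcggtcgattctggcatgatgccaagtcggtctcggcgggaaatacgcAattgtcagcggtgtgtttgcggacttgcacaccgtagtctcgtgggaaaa
These windows had GC contents of 58.4%, 51.5%, 44.6%, 50.5%, 49.5% and 55.4% in the order shown, all above the block mean. The ntl-11 and Y73F8A.27 windows, whose summits lie 976 bp apart, are near-copies. With the second set against the first at an offset of 6 bases, 89 of 95 compared bases were identical.

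The next lines give, on the strand of each gene, the 60 bases before the piRNA and the 21 bases of the piRNA itself in capitals. The core of the upstream motif, GTTTCA, or the longer CTGTTTCA, is also in capitals where a line holds these exact letters, at any distance from the piRNA. The first 5 genes are those nearest the strongest peaks that lay within 200 bp of any piRNA gene, and the last 3 are genes far from every entry, for comparison.
21ur-11261, chrIV:5364359-5364439, plus strand: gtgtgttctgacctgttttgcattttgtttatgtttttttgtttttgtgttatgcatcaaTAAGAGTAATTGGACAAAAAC
21ur-5229, chrIV:5967029-5967109, plus strand: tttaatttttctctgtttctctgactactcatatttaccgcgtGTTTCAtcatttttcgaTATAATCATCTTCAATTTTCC
21ur-3160, chrIV:14224908-14224988, plus strand: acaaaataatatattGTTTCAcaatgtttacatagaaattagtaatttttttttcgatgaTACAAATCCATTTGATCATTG
21ur-11678, chrIV:15235514-15235594, minus strand: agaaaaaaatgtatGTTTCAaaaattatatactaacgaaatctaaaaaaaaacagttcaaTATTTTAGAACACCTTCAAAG
21ur-8870, chrIV:6839416-6839496, plus strand: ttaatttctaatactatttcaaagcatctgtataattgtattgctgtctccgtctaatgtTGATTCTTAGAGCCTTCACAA
21ur-9017, chrIV:6682632-6682712, minus strand: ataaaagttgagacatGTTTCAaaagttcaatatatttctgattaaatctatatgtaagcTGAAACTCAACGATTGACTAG
21ur-13536, chrIV:6994499-6994579, plus strand: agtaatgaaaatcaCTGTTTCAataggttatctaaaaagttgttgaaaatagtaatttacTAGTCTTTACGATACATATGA
21ur-14995, chrIV:6994854-6994934, plus strand: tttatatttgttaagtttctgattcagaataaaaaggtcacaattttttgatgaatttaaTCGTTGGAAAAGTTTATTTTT
GTTTCA began 45 bases before the piRNA at 21ur-3160 (at -45), at -46 at 21ur-11678 and at -44 at 21ur-9017, but at -17 at 21ur-5229. These exact letters were not in the 60 bases at 21ur-11261, 21ur-8870 and 21ur-14995. Only exact matches were sought, so near matches were neither marked nor counted. At 21ur-5229 and 21ur-14995, gtttct stands at the distance where 21ur-11678 has GTTTCA. The letters gttttg stand at that distance at 21ur-11261, and atttca stands at -45 at 21ur-8870. All 8 windows were AT-rich, with GC contents between 21.0% and 30.9%, and all 8 piRNAs begin with T in the genomic sequence. Over the 14204 block piRNA genes, 96.2% begin with T, 34.8% had CTGTTTCA in the 60 bases before them and 65.0% had GTTTCA. In the rest of chromosome IV, 96.9% of the piRNA genes begin with T, and 31.6% had the longer motif. Its median position was 46 bases before the piRNA, at -46, in the blocks and in the rest alike.

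Entries were more frequent in the blocks than in the rest of chromosome IV, while peaks of the optimal set were less frequent. The pooled list had 445 entries per Mb in the blocks and 308 in the rest, a ratio of 1.44. Block A had 379.6 and block B 488 per Mb. The ratio was 1.25 in the list of replicate 1 alone and 1.39 in that of replicate 2. The lists are limited to 30000 entries and reach far below the authors' threshold, and among the 10000 pooled entries of highest signal the ratio was 1.05. Of the entries below the optimal set, 7.63% in the blocks had a deposited q-value of at most 5%, against 12.95% in the rest.

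The optimal set, the peaks kept by the authors' reproducibility (IDR) step, showed the opposite. It had 58 peaks in block A, 52 in block B and 284 in the rest of the chromosome. That is 17.7 per Mb in the blocks against 25.2 in the rest, a ratio of 0.71 (0.60 in replicate 1 and 0.68 in replicate 2, each with its 2409 entries of highest signal in place of the optimal set). Of the block entries, 3.99% were in the optimal set (exact 95% interval 3.29 to 4.79), against 8.16% in the rest (7.27 to 9.12) and 8.03% over the whole list. Block B had the lowest share, at 2.88% (2.16 to 3.76), and block A had 6.11% (4.67 to 7.83). These intervals are of the Clopper-Pearson kind. They treat the entries of a list as independent and cover counting error over entries only, not the spread between replicates. Read depths are unknown.

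Counted against protein-coding genes, the difference in the number of strong peaks was small in the pooled list and larger in each replicate list. There were 11.7 optimal-set peaks per 100 protein-coding genes in the blocks and 12.1 in the rest. Block A had 12.0 and block B 11.3. The replicate lists gave 10.6 for the blocks against 13.0 for the rest in replicate 1, and 11.2 for the blocks against 12.1 for the rest in replicate 2. Of the protein-coding genes themselves, 94 of 941 in the blocks (9.99%, exact 95% interval 8.15 to 12.1) had an optimal-set summit in the promoter, against 289 of 2340 in the rest (12.4%, 11 to 13.8) and 11.7% genome-wide. As promoter counted the 1000 bp before the annotated start and the 200 bp after it.

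**Figure D1:**
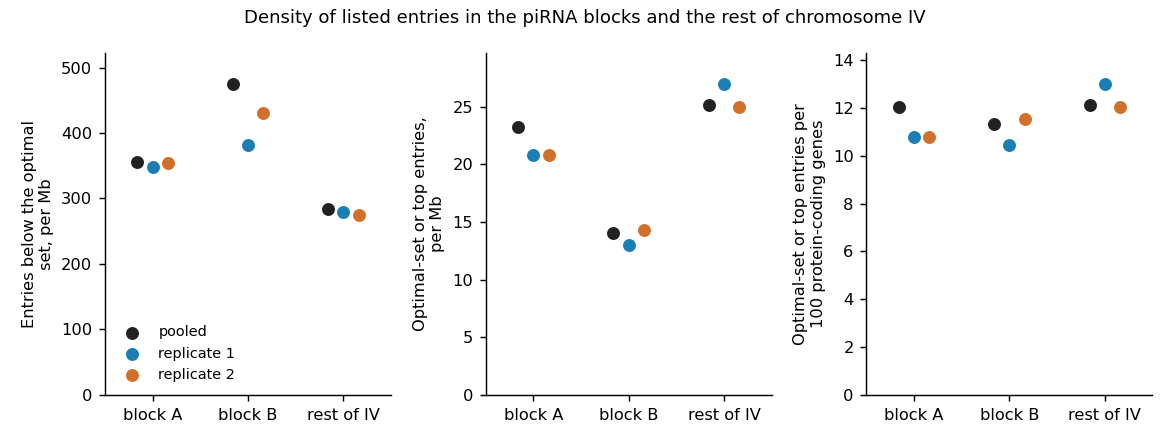
Entries below the optimal set per Mb (left), optimal-set peaks per Mb (middle) and optimal-set peaks per 100 protein-coding genes (right), each against the region (block A, block B, the rest of chromosome IV). Points are the pooled list and each replicate list, whose 2409 entries of highest signal stand for the optimal set. In the pooled list, entries below the optimal set reach 474 per Mb in block B against 283 in the rest, while optimal-set peaks are at 14.1 per Mb in block B against 25.2 in the rest.

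The deposited signal, the authors' own value for each peak in the units of their caller, was slightly lower in the blocks. Its median over pooled entries was 15.1 in the blocks and 16.1 in the rest, a log2 difference of -0.10. The difference was -0.05 in replicate 1 and -0.08 in replicate 2. The upper quartile was 20.0 in the blocks against 24.1 in the rest, and the optimal-set peaks had a median of 67.2 in the blocks and 68.4 in the rest. For the top entries of the replicate lists the order turned. Their median was 31.9 in the blocks against 29.2 in the rest in replicate 1, and 44.6 against 44.2 in replicate 2. Both pooled differences in the median are small beside the spread of the entries themselves, whose quartiles in the blocks lay at 12.2 and 20.0.

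The strongest peaks of block A stood at promoters of protein-coding genes. The first lay at chrIV:6323623-6324137 before sqd-1, which encodes an RNA-binding protein of the hnRNP family, with its summit 302 bp upstream of the start (at -302). Its signal was 2453 in the pooled list, 934 in replicate 1 and 1556 in replicate 2, and its rank was 4 in each of the 3 lists. Close by, at chrIV:6321781-6322025, a peak before Y73B6BL.29 had a signal of 464 in the pooled list, 179 in replicate 1 and 322 in replicate 2. A peak at chrIV:4749920-4750227 lay between rpl-20, which encodes a protein of the large ribosomal subunit, and Y17G9B.5, and had 591 in the pooled list, 239 in replicate 1 and 346.5 in replicate 2. These 3 peaks stood apart from the next in every list.

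The other 5 of the leading 8 in block A had pooled signals between 157 and 189. They lay before timm-17B.1, a gene of mitochondrial protein import (189, with 74.0 in replicate 1 and 110.4 in replicate 2), mif-4 and ipla-6 (180.4), F41H10.4 and hda-6 (168), W03F8.4 (166), and jmjd-1.2 and F29B9.11 (157). mif-4 encodes a relative of macrophage migration inhibitory factor, ipla-6 a phospholipase of the patatin type, hda-6 a histone deacetylase and jmjd-1.2 a histone demethylase. In all 5, replicate 2 had the higher signal. Their distance to the nearest piRNA gene ran from 71 bp at hda-6 to 30205 bp at jmjd-1.2.

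Block B had no peak of that height. Its strongest, at chrIV:15471529-15471749 and 134 bp upstream of ntl-11 (at -134), had a signal of 226 in the pooled list, 79.2 in replicate 1 and 146.5 in replicate 2. Its near-copy at chrIV:15472513-15472688 before Y73F8A.27 had 175 in the pooled list, 70.2 in replicate 1 and 109 in replicate 2. How reads were shared between these near-copies is not given in the sources used here, so their signals are uncertain. Next came the peak between set-26, a SET-domain gene, and tsr-2, at 152 in the pooled list, 59.6 in replicate 1 and 96.7 in replicate 2.

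The remaining 5 of the leading 8 in block B had pooled signals between 119.5 and 134. They lay in the promoters of snr-1, which encodes a core Sm protein of the spliceosome, and snx-13, a sorting nexin gene (134), Y57G11C.3 and mrps-7, a gene of the mitochondrial ribosome (133), Y41E3.1 (125), hrpu-1, an hnRNP U gene with the summit just after its start (122), and dld-1, which encodes dihydrolipoamide dehydrogenase (119.5). The peak at mrps-7 was the exception to the order of the replicates, with 76.1 in replicate 1 and 56.1 in replicate 2. Over a signal of 150, block A had 12 peaks in 2.5 Mb, block B 3 in 3.7 Mb and the rest of chromosome IV 19 in 11.29 Mb. At that height the blocks together, with 15 peaks in 6.2 Mb, were not poorer in peaks than the rest. Over a signal of 100 the blocks had 28 peaks and the rest 63, which is fewer per Mb in the blocks.

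**Figure D2:**
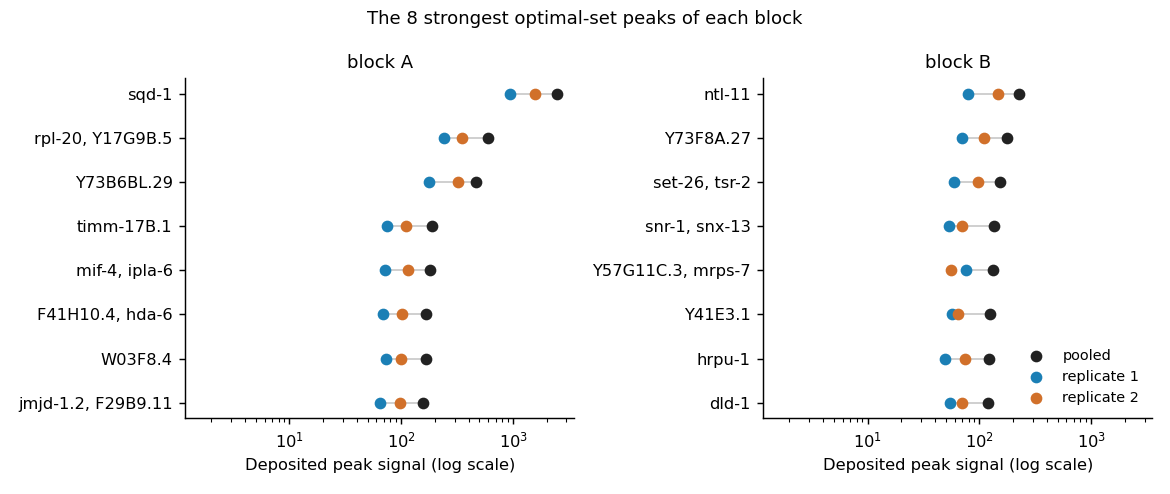
Deposited peak signal, on a log scale, of the 8 strongest optimal-set peaks of block A (left) and block B (right), named by the genes whose promoters hold the summit. Points are the pooled list, replicate 1 and replicate 2, and grey lines join them. The sqd-1 peak of block A, at 2453 in the pooled list, stands far above the strongest peak of block B, at 226, and replicate 2 lies above replicate 1 in all but the Y57G11C.3 and mrps-7 peak.

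The replicates overlapped about as often at block peaks as at those of the rest. Of the 110 optimal-set peaks in the blocks, 66 (60%, exact 95% interval 50.2 to 69.2) were overlapped by the 2409 highest entries of both replicates, against 180 of 284 in the rest (63.4%, 57.5 to 69.0). The median log2 ratio of replicate 2 to replicate 1 was 0.60 in the blocks (SD 0.70 over peaks) and 0.64 in the rest (SD 0.65). The pooled list draws on both replicates, which ties this overlap to its own source.

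Entries below the optimal set recurred somewhat less often near piRNA genes than away from them. Of the entries of replicate 1 in the blocks ranked below 2409, 48.0% were overlapped by an entry of replicate 2 of the same kind, against 45.5% in the rest. With the lists exchanged the order turned, at 43.1% in the blocks against 46.2% in the rest. Within the blocks it was 46.0% of those within 200 bp of a piRNA gene (exact 95% interval 43.3 to 48.7) and 50.8% of those farther away (47.6 to 54.0). Entries of replicate 2 covered 17% of the block bases near piRNA genes and 10.7% of those farther away, so overlaps were easier to obtain near piRNA genes. With the lists exchanged, 40.1% recurred near piRNA genes and 47.6% farther away.

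The deposited summit is the middle of the entry in 99.5% of the block entries, whose median width is 350 bp, so distances to so small a gene as a piRNA are approximate. Optimal-set summits were seldom close to piRNA genes, and weak entries often were. Within 200 bp of an annotated piRNA gene lay 3 of the 58 optimal-set summits of block A (5.17%, exact 95% interval 1.08 to 14.4) and 3 of the 52 of block B (5.77%, 1.21 to 16.0). The same distance takes in 30.1% of the bases of block A and 57.5% of those of block B. Over both blocks the ratio of the summits' share to the bases' share was 0.12. It was 0.15 in replicate 1, with 7 of 100 top entries near a piRNA gene, and 0.21 in replicate 2, with 10 of 105. The median distance to the nearest piRNA gene was 3080 bp for optimal-set summits in block A and 2069 bp in block B, against 572 bp for all bases of block A and 145 bp for those of block B.

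Taken over all block entries, the share near piRNA genes was above that of the bases. It was 59.2% of the 2756 entries (exact 95% interval 57.4 to 61.1) against 46.4% of the bases, a ratio of 1.28 (1.21 in replicate 1 and 1.24 in replicate 2). In block A it was 33.6% of entries against 30.1% of bases, a ratio of 1.12, and in block B 72.7% against 57.5%, a ratio of 1.26. The ratio over both exceeds each of these because block B, richer in piRNA genes, also holds more of the entries. In the rest of chromosome IV, 2.07% of entries and 1.57% of bases lay that near to one of its few piRNA genes, a ratio of 1.31. The ratios of the blocks and of the rest cannot be ranked, because a ratio has a lower ceiling where more of the bases are near a piRNA gene. That of the rest also stands on only 72 entries (exact 95% interval of the share 1.62 to 2.60%).

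In the pooled list the share climbed with falling signal rank in both blocks, except between the 2 lowest tiers. There it stayed level in block B and was lower in the last tier of block A. In block B it was 5.77% in the optimal set, 46.2% at ranks 2410 to 5000 of the whole pooled list, 70.5% at ranks 5001 to 10000 and 76.8% in each of the 2 lower tiers. In block A it was 5.17%, then 12.5%, 28.5%, 41.9% and 37.1% in the lowest tier. The replicates differed in the 2 lowest tiers of block A, with 39.0% then 36.8% in replicate 1 and 37.2% then 40.6% in replicate 2. Replicate 1 gave 6.25%, 65.1%, 66.4%, 74.5% and 74.6% over the same tiers in block B, and replicate 2 gave 11.3%, 47.1%, 67.4%, 77.2% and 74.7%. Outside promoters the shares in the blocks were 10% in the optimal set and 67.7% at ranks 10001 to 20000, against 48.6% of bases.

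**Figure D3:**
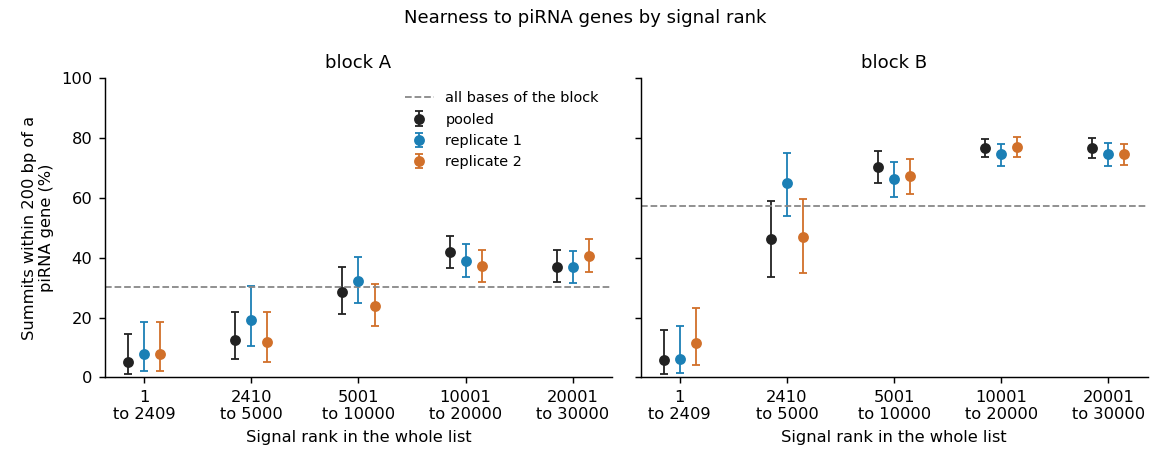
Percentage of summits within 200 bp of an annotated piRNA gene (vertical axis) by signal rank in the whole list (horizontal axis), in block A (left) and block B (right), for the pooled list and each replicate list. Bars are exact 95% intervals and the dashed line is the percentage of all bases of the block. In block B the pooled points climb from 5.77% in the first tier to 76.8% in the last, past the line at 57.5%.

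Most of these weak entries were AT-rich, as are the surroundings of piRNA genes. In windows reaching 50 bases to each side of the summit, optimal-set peaks had a mean GC content of 45.4% in the blocks (SD 7.87, n = 110) and 43.5% in the rest (SD 8.93, n = 284). Around the summits of entries below the optimal set it was 29.1% in the blocks (SD 8.29, n = 2646) and 32.3% in the rest (SD 9.03, n = 3198). Weak entries were poorer in G and C than the sequence they came from on both sides of the distance limit, at 26.9% against 29.6% of bases near piRNA genes and 32.6% against 35.9% of bases farther away. Windows under 25% GC held 36.8% of the weak block entries and 19.2% of block bases.

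Within classes of like GC content the nearness to piRNA genes shrank but kept its direction over both blocks. Among windows under 25% GC, 75.3% of weak entries lay within 200 bp of a piRNA gene, against 69.5% of bases. At 25 to 30% the shares were 71.1% of entries and 60.6% of bases, at 30 to 35% 53.2% and 46.1%, and at 35% or more 28.6% and 24.6%. Block B alone went the same way in all 4 classes. In block A the order turned in the GC-richer classes, with 27.9% of entries against 31.6% of bases at 30 to 35% and 13.5% against 16.4% at 35% or more. That turn was not the same in each replicate. In replicate 1 the shares in block A were 31.5% against 31.6% at 30 to 35% and 14.8% against 16.4% at 35% or more. In replicate 2 they were 35.5% against 31.6% and 17.2% against 16.4%, while at 25 to 30% they were 37.98% of entries against 40.9% of bases. The part of base composition beyond these classes was not tested.

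Optimal-set peaks were few near piRNA genes also among GC-rich windows. There were 100 such peaks at 35% GC or more, of which 6 (6%, exact 95% interval 2.23 to 12.6) lay within 200 bp of a piRNA gene, against 24.6% of block bases in that class. Promoters gave a like picture, with 2 of 70 promoter peaks near a piRNA gene (2.86%, 0.35 to 9.94) against 35.4% of promoter bases of the blocks.

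**Figure D4:**
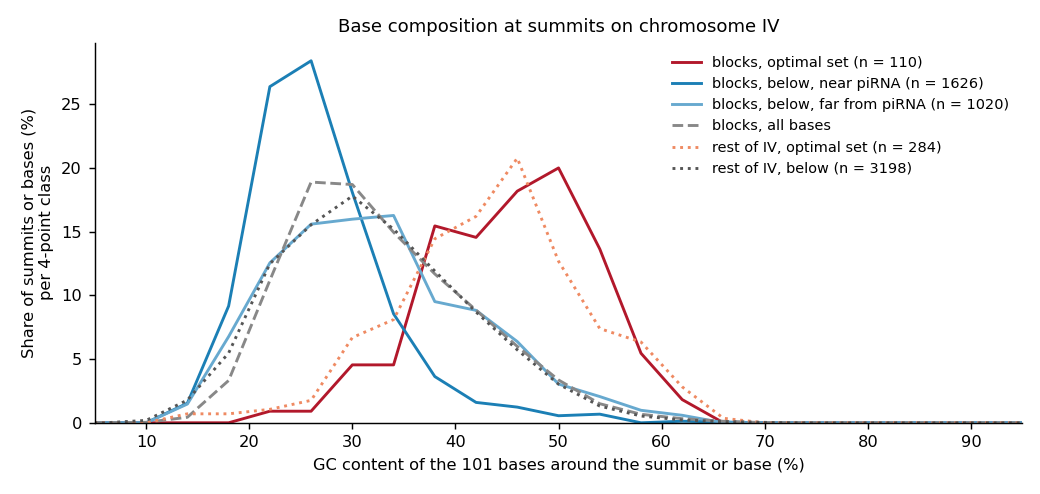
Share of summits or bases (vertical axis) by GC content of the window of 50 bases to each side in 4-point classes (horizontal axis), for block and other optimal-set peaks, for weaker block entries near and far from piRNA genes, for weaker entries of the rest of chromosome IV, and for all block bases. Optimal-set peaks lie to the right in the blocks (mean 45.4%) and in the rest (43.5%), and weak block entries near piRNA genes lie farthest to the left (26.9%).

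Viewed from the piRNA genes, the weak entries formed a low rise just upstream. Entries below the optimal set had 0.631 summits per kb in the 300 bp before the piRNA start, averaged over the 14204 block genes, against 0.552 at 700 to 1000 bp on both sides, a ratio of 1.14. The ratio was 1.13 in replicate 1 and 1.17 in replicate 2. Downstream it was 1.07 in the pooled list, 1.05 in replicate 1 and 1.08 in replicate 2. Optimal-set summits dipped instead, to 0.00258 per kb upstream against 0.00751 farther out, on 11 pairs of a summit and a piRNA gene. Neighbouring piRNA genes share summits, so these pairs are not independent.

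**Figure D5:**
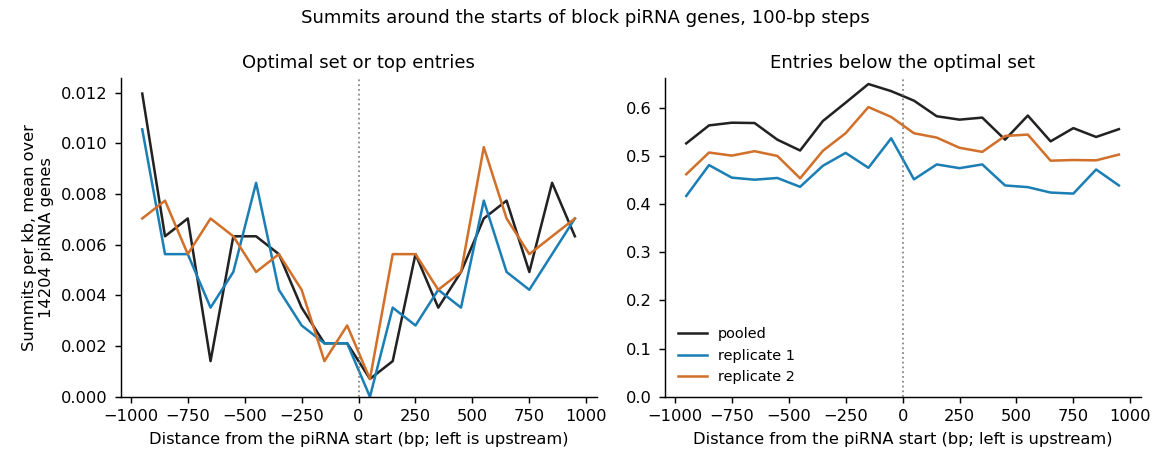
Summits per kb (vertical axis), averaged over the 14204 piRNA genes of the blocks, by distance from the piRNA start in 100-bp steps (horizontal axis, upstream to the left), for optimal-set or top entries (left) and entries below them (right). Lines are the pooled list and each replicate list. The right panel rises by a ratio of 1.14 in the 300 bp upstream in the pooled list, and the left panel falls to 0.34 of its level at 700 to 1000 bp.

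Nearness to an entry hardly differed between piRNA genes with and without an exact match of the longer upstream motif. An entry of any rank lay within 200 bp of 24.4% of the block piRNA genes with CTGTTTCA (exact 95% interval 23.2 to 25.6) and of 25.2% of those without it (24.3 to 26.1). Read on both strands (the reverse complement is TGAAACAG), CTGTTTCA was in none of these windows of the 110 optimal-set peaks of the blocks (exact upper limit 3.30%), against 7.36% of the windows around all block bases. Among the top entries of the replicate lists it was in 1 of 100 windows in replicate 1 and 1 of 105 in replicate 2. Most optimal-set summits lay more than 200 bp from a piRNA gene, and of all block windows that far away only 1.67% had CTGTTTCA. Weak entries near piRNA genes had it in 15.6% of windows (13.9 to 17.5) against 13.9% of all windows as near. Motif and piRNA genes lie together, so this count and the distance to piRNA genes are not separate measures, and a window without these letters says nothing of any factor.

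In all, 3541 of the 14204 block piRNA genes (24.9%) had an entry of any rank within 200 bp, against 96 of 510 in the rest (18.8%) and 24.2% genome-wide. Block A had 18.3% and block B 26.6%. An optimal-set summit that near was found for 10 block piRNA genes (0.0704%), against 3 in the rest (0.588%) and 0.176% genome-wide. Both genome-wide shares are over 15363 piRNA genes, most of them the block genes themselves, so they are no separate reference.

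Along the blocks, weak entries were denser where piRNA genes were denser. Over bins of 100 kb, block A had a median of 35 entries below the optimal set (13 to 61, 25 bins) and block B of 48 (27 to 67, 37 bins), against 27 in the rest (0 to 56, 110 bins). Their number went with that of piRNA genes at a Pearson r of 0.56 in block A (Spearman rho 0.55) and 0.59 in block B (rho 0.57), and of -0.10 in the rest (rho -0.10). In block A, r was 0.48 in replicate 1 and 0.47 in replicate 2, and in block B it was 0.37 in replicate 1 and 0.38 in replicate 2. For optimal-set peaks it was -0.46 in block A and -0.36 in block B. These are descriptions, since neighbouring bins share chromatin, gene density and base composition. Against protein-coding genes, weak entries had r of -0.51 in block A (-0.29 in replicate 1 and -0.35 in replicate 2) and -0.38 in block B (-0.17 in replicate 1 and -0.225 in replicate 2), and -0.285 in the rest.

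The block edges were those of the rule, and the piRNA genes did not start there evenly. The first 250 kb of block A held 2 piRNA genes and 93 entries, while the 250 kb before it held 9 piRNA genes and 83 entries. The first 250 kb of block B held 428 piRNA genes and 97 entries, while the 250 kb before it held 5 piRNA genes and 117 entries. The last 250 kb of block A held 112 piRNA genes and 88 entries, while the 250 kb after it held 25 piRNA genes and 75 entries. The last 250 kb of block B held 443 piRNA genes and 108 entries, while the 250 kb after it held 169 piRNA genes and 84 entries. Entries were thus denser inside than outside at 3 of the 4 edges and sparser inside at the left edge of block B.

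The 6 optimal-set peaks within 200 bp of a piRNA gene mostly had a promoter or a tRNA gene beside them as well. That at chrIV:5364306-5364397, 71 bp from 21ur-11261, is the hda-6 promoter peak described above, with 168 in the pooled list, 68.1 in replicate 1 and 100.8 in replicate 2. That at chrIV:5966955-5967304, 21 bp from 21ur-5229, had 137 in the pooled list, 68.6 in replicate 1 and 71.7 in replicate 2 and lay by a tRNA gene. So did those at 21ur-3160 (68.1), at 21ur-11678 in the pkd-2 promoter (66.0) and at 21ur-2860 (51.9). The sixth, 59 bp from 21ur-8870, had 60.1 in the pooled list, with 43.3 in replicate 1 and 17.1 in replicate 2, and lay by neither a tRNA gene nor a promoter. It overlaps a stronger optimal-set peak at chrIV:6839043-6839392 (84.3 in the pooled list), whose summit lay 258 bp from the same piRNA gene. Both peaks match the same entry of replicate 1, so the 43.3 is shared between them, while in replicate 2 the stronger one had 62.8. So 5 of the 6 stood in a protein-coding promoter or by a tRNA gene, as did 80 of all 110 block peaks (72.7%).

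Promoters held 70 of the 110 optimal-set summits of the blocks (63.6%, exact 95% interval 53.9 to 72.6) and 205 of 284 in the rest (72.2%, 66.6 to 77.3). This difference was not stable, for in replicate 1 the blocks had 68.0% against 65.8% in the rest, and in replicate 2 the blocks had 62.9% against 73.05% in the rest. Of the other block peaks, 24 were intergenic, 15 in introns and 1 in an exon.

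Among peaks outside promoters, tRNA genes and sequence with other copies were more frequent in the blocks than in the rest. A tRNA gene, transcribed by RNA polymerase III, lay within 200 bp of 14 of the 110 block peaks (12.7%, exact 95% interval 7.14 to 20.4), against 3 of 284 in the rest (1.06%, 0.22 to 3.06). Outside promoters it was 10 of 40 against 0 of 79. Seen from the genes, 4 of 9 tRNA genes of block A, 10 of 32 of block B and 3 of 30 of the rest had such a peak. The window around the summit had another copy in the genome, of at least 80% identity over 80 bases, for 3 of 58 peaks of block A (5.17%, 1.08 to 14.4), 12 of 52 of block B (23.1%, 12.5 to 36.8) and 16 of 284 of the rest (5.63%, 3.25 to 8.99). Outside promoters it was 10 of 40 in the blocks against 2 of 79 in the rest. Of these 10 block peaks, 7 were also within 200 bp of a tRNA gene, so both traits fall largely on the same peaks. The largest number in the blocks was 36 copies, at the peak by 21ur-3160. How the authors treated reads that match several places is not given in the sources used here, and its part in these signals was not tested.

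Other classes of small genes had few members in the blocks. Only optimal-set summits are counted here. snoRNA genes, whose RNAs guide chemical changes of ribosomal RNA, had such a summit within 200 bp in 2 of 10 cases in block A, 1 of 8 in block B and 13 of 41 in the rest. snRNA genes, which encode spliceosomal RNAs, had one in 0 of 8 cases in block A, 1 of 8 in block B and 2 of 25 in the rest. miRNA genes had none among 9 in block A and 10 in block B, and 2 of 31 in the rest. With so few genes the exact upper limits for miRNAs are 33.6% in block A and 30.9% in block B.

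Ribosomal protein genes of chromosome IV all had an optimal-set summit in the promoter, inside the blocks as outside them, against 11.7% of protein-coding genes genome-wide. These were rpl-20 (signal 591) and rps-25 (102.6) in block A, rpl-29 (103), rpl-18 (94.9) and rps-18 (65.4) in block B, and 12 of 12 in the rest of chromosome IV. The single proteasome gene of the blocks, rpn-1 of block A, had one too, with a signal of 79.0.

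The strongest entries left out of the optimal set were close to its lower edge. In block A it was that at chrIV:4510866-4511215, with a signal of 48.25, whose summit lay 268 bp downstream of the start of rfth-1. In block B it was that at chrIV:13512218-13512567 before puf-3, which encodes a Pumilio-family RNA-binding protein, with 48.21. The weakest optimal-set peaks had 48.6 in block A and 49.5 in block B. Within 200 bp of a piRNA gene, the strongest such entries had 46.9, at 21ur-11431 before ugt-20 in block A, and 47.4, at 21ur-8331 in block B.

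Of 20 listed genes that make or use piRNAs, 18 were found in the annotation, none of them on chromosome IV. The other 2, prg-2 and tofu-3, were not found by these names and were not placed. An optimal-set summit lay in the promoters of 3 of the 18 (16.7%), against 11.7% of all protein-coding genes. They were him-17 (80.1 in the pooled list, 30.6 in replicate 1 and 52.7 in replicate 2), which encodes a chromatin factor of the germline, pid-3 (69.0, with 18.9 in replicate 1 and 48.2 in replicate 2) and tofu-1 (59.1, with 18.4 in replicate 1 and 42.9 in replicate 2). In all, 12 of the 18 (66.7%) had an entry of some rank in the promoter, against 40.1% of all protein-coding genes, among them prg-1 (21.4), prde-1 (26.0), snpc-4 (35.8), tofu-4 (35.6), tofu-5 (19.2) and tost-1 (41.8), all below the optimal set.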

How the data were processed

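The authors deposited peak lists of 30000 entries for each replicate and for both together, and an optimal set of 2409 peaks chosen by IDR, per the labels and the names of the files. The signal of each entry and its −log10 q-value were used as deposited, the signal to rank and describe entries within a list and the q-value only to check the lists. Calls were made against a control alignment, per the accompanying notes. No source used here gives the aligner, the caller, their settings or the read depths. Only the ce11 lists were used.

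Regions were compared by counts with exact (Clopper-Pearson) 95% intervals and without a test, since 1 group and no control group leave none. Each replicate list was analysed alone, with its 2409 highest entries in place of the optimal set. Bases were counted 1 by 1 in WBcel235 with genes of Ensembl release 115. Copies of summit windows were found with blastn 2.17.0 (E value at most 1e-05). Counting steps were tested on simulated data. Named genes are those at the 8 strongest optimal-set peaks of each block, the piRNA genes nearest to peaks within 200 bp, a list of piRNA pathway genes and small gene classes. 21ur-2860, pkd-2 and the genes that locate other entries were added to describe them. Members, lists and regions were chosen with earlier results of these data known. Python 3.11.15, pandas 2.3.3 and scipy 1.17.1 were used.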

Additional observations from a re-analysis of the deposited data

How the results depend on the processing

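Counts rest on 2 replicates, unknown read depth and the annotated piRNA genes. Of 44 alternative values of the 7 comparisons, 21 moved by less than the SD between the replicate lists, 22 moved by more without changing direction and 1 changed direction. That SD comes from 2 values, which are themselves among the alternatives, so it is a rough scale only. No paired analysis was possible because there is 1 group. Alternatives on GC content, copies and tRNA genes were chosen after seeing the data.

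With 1 replicate list left out, the entry density ratio ran from 1.25 to 1.39, the optimal density ratio from 0.60 to 0.68, the difference in optimal-set share from -4.58 to -4.25 percentage points, the log2 difference of signal from -0.079 to -0.052, the ratio of entries near piRNA genes from 1.21 to 1.24 and that of optimal peaks from 0.15 to 0.21. The difference in promoter share ran from -10.2 to 2.21 points and changed direction without replicate 2. Its SD was 8.77 points, so large shifts counted as small. From -8.55 points it went to -0.46 with the stronger members of the optimal set and to -3.14 without peaks near tRNA genes. With narrower blocks, a shorter promoter or the other autosomes it stayed between -9.91 and -8.54.

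Among the 10000 entries of highest signal the entry density ratio was 1.05 and the log2 difference of signal -0.18. The difference in optimal-set share was -4.40 points with narrower blocks, -1.96 with the stronger members of the optimal set and -4.77 against the other autosomes. The optimal density ratio was 0.65 without copied windows. The ratio of entries near piRNA genes was 1.25 with narrower blocks, 1.35 within 100 bp, 1.17 within 500 bp, 1.31 outside promoters, 1.14 under 30% GC and 1.14 at 30% or more. That of optimal peaks was 0.32 within 500 bp, 0.21 outside promoters and 0.24 at 35% GC or more.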
